A study of Sus scrofa with 102 samples.

Results

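The genes described here encode MAP kinases, the kinases above them, the phosphatases that act against them and neighbouring signalling kinases, measured in *Longissimus dorsi* muscle of backcross Iberian x Landrace pigs. They were chosen by symbol alone, as the probe sets whose single annotated symbol begins with MAPK, MAP2K to MAP4K, DUSP, PPP1 to PPP6, PTPN, PTPR, PTP4, PRKA, PRKC, PRKD, PRKG, CAMK, PIK3, PPM1 or RPS6K, and where a gene had several probe sets the one with the highest mean over all arrays was used. This gave 40 genes in 13 families, out of 2201 genes with a single symbol. The 40 genes had 47 probe sets among the 5449 tested, and 7 of them had a second probe set. The whole study held 102 pigs fed ad libitum, each with 1 Affymetrix array of total muscle RNA. There were 55 females and 47 males, aged 171 to 184 days at slaughter, with carcass weights of 43.6 to 97.8 kg. Pigs were slaughtered in 3 batches: batch 1 held 14 pigs (8 females and 6 males, 171 to 181 days old), batch 3 held 18 (11 females and 7 males, 178 to 181 days old) and batch 2 held 70 (36 females and 34 males, 178 to 184 days old). No group received a treatment and no line was engineered, so the comparisons the labels allow are those between the sexes, between the slaughter batches and along carcass weight.

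Protein kinases add phosphate to other proteins and phosphatases take it off. In a MAP kinase module a MAP3K phosphorylates a MAP2K, which in turn phosphorylates a MAP kinase such as ERK, JNK or p38, and dual-specificity phosphatases remove those phosphates again. Protein phosphatases PP1 and PP2A work as a catalytic subunit bound to one of many regulatory subunits, which set where the enzyme acts. In skeletal muscle these enzymes meet AMPK, a sensor of the energy state, protein kinase A, which answers to cyclic AMP and adrenaline, and CaMKII and calcineurin, which answer to the calcium released at contraction. The arrays measured transcript levels only and gave no information on phosphorylation or activity.

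Several arrays stood apart from their labels. Of the 102 arrays, 6 went against the sex label or carried transcripts of both sexes over 9 strongly sex-specific probe sets; 5 of them were labelled female and 1 male. Over the probe sets with the widest batch differences, 5 arrays lay nearer to another batch than to their own: 1 in batch 1, 1 in batch 3 and 3 in batch 2. The 5′ minus middle difference of the actin control probe sets, a measure of how intact the RNA was, was -1.28 ± 0.30 over the 14 arrays of batch 1, -1.32 ± 0.43 over the 18 of batch 3 and -0.80 ± 0.29 over the 70 of batch 2 on the log2 scale (mean ± SD), and -0.97 ± 0.38 over females against -0.94 ± 0.41 over males. Mean carcass weight was 65.9 ± 10.2 kg in batch 1, 64.6 ± 11.7 kg in batch 3 and 73.3 ± 8.85 kg in batch 2 (SD), and 68.6 ± 8.98 kg for females against 73.2 ± 11.1 kg for males (SD). Array medians lay between 6.19 and 6.69, and no 2 arrays were identical. Of 12 skeletal muscle markers only *DES*, which encodes the intermediate filament desmin, was among the probe sets here, and its lowest value on any array was 11.18. No lymphocyte marker and no red blood cell marker was among them.

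All 40 genes were read from a model with sex, slaughter batch and carcass weight fitted to every probe set with limma, and p-values were adjusted over all 5449 probe sets (Benjamini-Hochberg), with 0.05 as the threshold for a call. Levels are log2 GCRMA signals, so a difference of 1 is a doubling of the signal, and the level of one probe set is not comparable with that of another. No filter on low signals was applied, and 1 of the 40 genes had a mean under 4. Pigs of this cross are related and were treated here as independent, and which pigs share a sire or dam was not used. In whole muscle, fewer cells of a type and less transcript per cell cannot be told apart.

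The sexes differed in few of these genes. Of the 40 genes 6 passed the threshold, or 15%, against 26.1% of all probe sets; 3 were higher in females, against a background of 11.7%, and 3 were lower, against 14.4%. Without adjustment 12 of the 40 had a p under 0.05. After quantile normalization 7 passed, 5 of these 6 with *PRKAB2* and *PTPN4*, 4 of them higher and 3 lower, while the background split turned to 14.4% higher and 11.8% lower. The median difference, female minus male, was -0.06 over the 40 genes and -0.03 over all probe sets on the log2 scale. The 6 genes fell in 4 families: AMPK with 2 of 3 measured genes, the PI3-kinase genes with 2 of 2, PP1 with 1 of 8 and PP2A with 1 of 3. None of the 9 genes counted with the MAP kinase modules, the 4 dual-specificity phosphatases, the 2 protein kinase A genes or the 3 calmodulin-dependent kinase genes passed.

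The 2 measured gamma subunits of AMPK differed between the sexes in opposite directions. AMPK is a trimer of a catalytic alpha, a scaffolding beta and a nucleotide-binding gamma subunit, and *PRKAG3* encodes the gamma subunit typical of skeletal muscle, while the product of *PRKAG2* is best known from the heart. *PRKAG2* ranged in females from 6.04 through a median of 7.60 to 10.42, and in males from 5.68 through a median of 8.85 to 11.13. The ranges overlapped widely, yet 47 of 55 females lay below the male median and 6 males lay above the highest female. In the fit *PRKAG2* was lower in females by a log2 difference of -1.12 ± 0.24 (SE; 0.461 times the male level; limma adjusted p = 2.13e-04). *PRKAG3* had a low signal, with a mean of 4.17 at percentile 10.6 of all probe sets. It ranged in females from 2.93 through 4.15 to 6.65, and in males from 2.88 through 4.12 to 5.82. Its medians were almost equal, and 31 of 55 females lay above the male median. With batch and weight in the model the difference was 0.41 ± 0.12 (SE; 1.33-fold; limma adjusted p = 0.00766), and without those terms it did not pass. *PRKAB2*, the beta subunit found in muscle, averaged 9.49 ± 0.47 in females and 9.31 ± 0.45 in males (SD), with a difference of 0.18 ± 0.09 (SE; limma adjusted p = 0.145).

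Among the phosphatase genes the largest sex difference was in *PPP1R15A*, also known as GADD34, a stress-induced subunit that brings PP1 to the translation factor eIF2 alpha. Females spanned 3.31 to 8.06 with a median of 4.87, and males spanned 3.68 to 9.53 with a median of 6.00. Of 55 females 50 lay below the male median, and 8 males exceeded every female. The fitted difference was -1.12 ± 0.22 (SE; 0.460 times the male level; limma adjusted p = 9.76e-05). *PPP2R5D*, a B-type subunit that selects targets for PP2A, spanned 3.10 to 5.41 in females, with a median of 4.06, and 3.12 to 5.92 in males, with a median of 4.57. The ranges nearly coincided and 43 of 55 females lay below the male median. Its difference was -0.27 ± 0.10 (SE; 0.828 times the male level; limma adjusted p = 0.0308).

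Both genes of the PI3-kinase family were higher in females by small amounts. *PIK3IP1* encodes a membrane protein that restrains PI3-kinase. Its level ran in females from 3.71 to 6.87 around a median of 5.39, and in males from 3.72 to 7.11 around a median of 5.17, and 39 of 55 females lay above the male median. The fitted difference was 0.40 ± 0.13 (SE; 1.32-fold; limma adjusted p = 0.0169), and it did not pass without batch and weight in the model. *PIK3CG* encodes the catalytic p110 gamma subunit, best known from white blood cells, and had a mean of 3.49 over all pigs. Females ran from 2.66 to 5.56 around a median of 3.33 and males from 2.52 to 4.69 around a median of 3.25. The ranges overlapped almost fully, with 41 of 55 females above the male median. The difference of 0.22 ± 0.08 (SE; limma adjusted p = 0.0434) lay near the threshold and did not pass after quantile normalization (adjusted p = 0.0513). The 2 macrophage markers measured, *CD163* and *AIF1*, did not pass for sex, and their mean ran from 3.23 to 6.69 in females and from 3.62 to 6.94 in males. Of the 5 endothelial markers measured, *PECAM1* (-0.29) and *TEK* (-0.21) were lower in females, *ADIPOQ* (0.65) alone of 5 adipocyte markers was higher, and so was *DCN* (0.27) of 4 fibroblast markers; the part of these cell types in the 6 results was not tested.

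**Figure D1:**
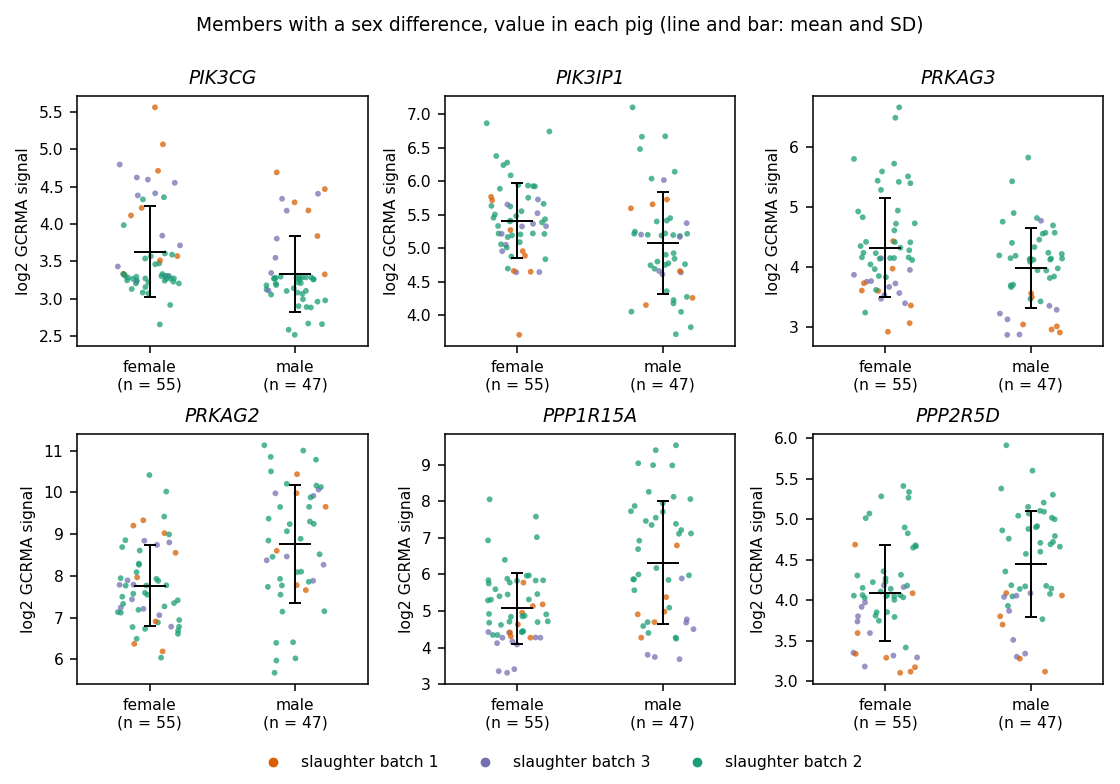
Log2 GCRMA signal of the 6 genes with a sex difference, 1 point per pig, females (n = 55) left and males (n = 47) right, coloured by slaughter batch, with lines and bars for mean and SD. *PPP1R15A* and *PRKAG2* show the widest separation, with 8 and 6 males above the highest female, while the other 4 overlap almost completely.

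The sex differences were then read within batches. In batch 2 alone 11 of the 40 genes passed, against 32.4% of all probe sets in that fit, and they held all 6 genes above; the others were *PPM1G*, *PPP1CA*, *PPP1R14B*, *PPP2R1A* and *PRKAB2*. Within batch 1 (8 females, 6 males) and batch 3 (11 females, 7 males) no gene passed with limma, with 0 and 3 of 40 at an unadjusted p under 0.05, and few of all probe sets did (0.239% and 0.294%). The estimate for *PRKAG2* was -0.90 in batch 1, -1.36 in batch 3 and -1.08 in batch 2. *PPP1R15A* gave -0.40, -0.44 and -1.48 in the same order. *PRKAG3* gave 0.43, 0.36 and 0.43. *PIK3IP1* gave -0.18 in batch 1, opposite to its estimates of 0.12 in batch 3 and 0.58 in batch 2. *PPP2R5D* gave -0.09, -0.01 and -0.34, and *PIK3CG* 0.16, 0.20 and 0.24. The differences between these batch estimates were tested with sex by batch terms, and none of the 40 genes passed (2 at an unadjusted p under 0.05), against 0% of all probe sets. Without the 6 arrays that went against the sex label or showed both sexes, 7 genes passed, against 25.8% of all probe sets: the same 6 and *PTPN4* (0.27), with *PRKAG2* at -1.24 and *PPP1R15A* at -1.18. Without the 5 arrays nearer to another batch, *PIK3CG* no longer passed (0.18, limma adjusted p = 0.108).

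Nearly all of these genes differed between slaughter batches, as did most of the probe sets tested. The authors had removed probe sets with little variation over these arrays, so the shares below hold only for the varying probe sets that were kept. By the F test over the 3 batches 36 of the 40 genes passed, or 90%, against 86.6% of all probe sets, so the share alone does not set these genes apart. Relative to batch 2, 33 passed in batch 1 (background 74.2%), of which 5 were higher (background 32.7%) and 28 lower (background 41.5%). In batch 3, 37 passed (background 81.5%), of which 6 were higher (background 36.2%) and 31 lower (background 45.3%). The median difference over the 40 genes was -0.67 in batch 1 and -0.89 in batch 3, beside -0.11 and -0.17 over all probe sets. Both comparisons use the same batch 2 arrays. The 4 genes that did not pass the F test were *DUSP6*, *PIK3IP1*, *PRKAB2* and *PRKAG2*.

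**Figure D2:**
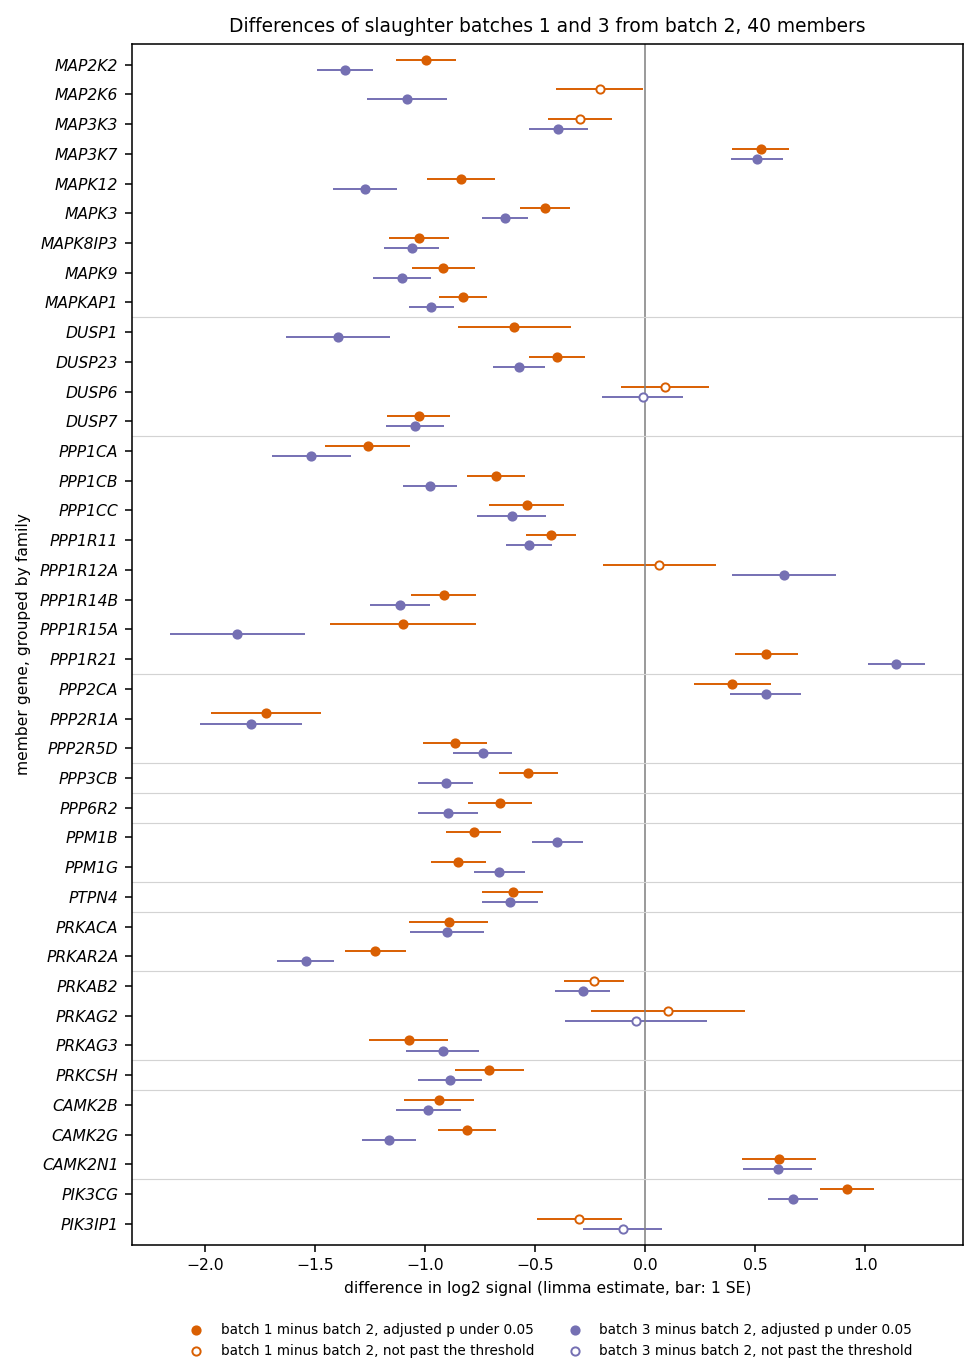
Differences in log2 signal of batch 1 minus batch 2 and batch 3 minus batch 2 for the 40 genes, grouped by family, as limma estimates with bars of 1 SE; filled points passed the threshold. Points lie left of 0 for 28 called genes in batch 1 and 31 in batch 3, and right of 0 for 5 and 6.

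Most of the 9 genes counted with the MAP kinase modules were lower in batches 1 and 3. They were matched by symbol and include *MAPKAP1*, which encodes a subunit of an mTOR complex. Of the 9 genes, 6 were lower and 1 higher in batch 1, beside 41.5% and 32.7% of all probe sets. In batch 3, 8 were lower and 1 higher, beside 45.3% and 36.2%. *MAP2K2* encodes MEK2, which phosphorylates the ERK kinases. Its level ran from 9.42 through a median of 9.85 to 11.43 in batch 1, from 8.73 through 9.65 to 10.44 in batch 3, and from 9.63 through 11.05 to 11.78 in batch 2. All 18 pigs of batch 3 and 13 of 14 of batch 1 lay below the batch 2 median, and the remaining pig was the 1 array of batch 1 that lay nearer to batch 2. Batch 1 had 0.501 and batch 3 0.389 times the batch 2 level, with SE of 0.14 and 0.13 on the log2 scale (limma adjusted p = 7.98e-10 and 5.35e-17). *MAPK3*, the ERK kinase ERK1, followed with -0.46 ± 0.11 and -0.64 ± 0.11 (SE; limma adjusted p = 2.31e-04 and 6.01e-08).

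*MAPKAP1* encodes SIN1, a subunit of the mTOR complex that phosphorylates AKT, and had the smallest residual spread of the 40 genes. It spanned 6.61 to 8.08 in batch 1 (median 7.35), 5.71 to 8.09 in batch 3 (median 7.14) and 7.23 to 8.80 in batch 2 (median 8.24). All 32 pigs of batches 1 and 3 lay below the batch 2 median, and 5 of 14 and 10 of 18 lay below every batch 2 pig. Its differences were -0.83 ± 0.11 and -0.97 ± 0.10 (SE; limma adjusted p = 2.61e-10 and 8.58e-15). *MAPK12* encodes p38 gamma, the p38 kinase abundant in skeletal muscle, and had medians of 8.75 in batch 1, 8.38 in batch 3 and 9.69 in batch 2. The differences for *MAPK12* were -0.84 ± 0.16 and -1.27 ± 0.14 (SE). *MAPK9* encodes a JNK kinase and *MAPK8IP3* a scaffold that ties JNK to the motor protein kinesin. *MAPK9* differed by -0.92 ± 0.14 and -1.10 ± 0.13, and *MAPK8IP3* by -1.03 ± 0.14 and -1.06 ± 0.13 (SE). For *MAPK8IP3*, 7 of 14 pigs of batch 1 and 11 of 18 of batch 3 lay below the lowest pig of batch 2.

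The upstream kinases of the modules were mixed. *MAP3K7*, the kinase TAK1 that receives TGF-beta and cytokine signals, was the only gene of the modules that was higher, by 0.52 ± 0.13 in batch 1 and 0.51 ± 0.12 in batch 3 (SE; limma adjusted p = 2.01e-04 and 8.16e-05). It ran from 6.68 to 9.06 in batch 1, from 6.82 to 8.87 in batch 3 and from 6.38 to 8.47 in batch 2, so the groups overlapped, with 13 of 14 and 14 of 18 pigs above the batch 2 median. *MAP2K6*, which activates p38 kinases, was lower in batch 3 (-1.08 ± 0.18, SE) and had a difference of -0.21 ± 0.20 in batch 1 (limma adjusted p = 0.344). *MAP3K3* likewise passed only in batch 3 (-0.39 ± 0.13 in batch 3 and -0.30 ± 0.14 in batch 1, SE) by the probe set used, while its second probe set passed in both, at -0.90 ± 0.16 in batch 1 and -1.01 ± 0.15 in batch 3 (SE; limma adjusted p = 9.6e-07 and 4.5e-09). The difference between batches 1 and 3 was not tested for either gene.

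Of the 4 dual-specificity phosphatases 3 were lower in both batches by the probe set used, beside 41.5% of all probe sets in batch 1 and 45.3% in batch 3. *DUSP7*, a cytoplasmic phosphatase of ERK, spanned 5.81 to 7.67 in batch 1 (median 6.02), 5.52 to 7.14 in batch 3 (median 6.16) and 6.07 to 8.42 in batch 2 (median 7.32). All but 1 of the 32 pigs of batches 1 and 3 lay under the batch 2 median. The differences were -1.03 ± 0.14 and -1.05 ± 0.13 (SE; limma adjusted p = 7.8e-10 and 1.11e-11). *DUSP1*, an immediate early gene whose product acts in the nucleus on p38 and JNK, was lower by a log2 difference of -0.59 ± 0.26 in batch 1 and -1.40 ± 0.24 in batch 3 (SE, limma adjusted p = 0.0314 and 1.28e-07). All 18 pigs of batch 3 lay below the batch 2 median of *DUSP1*, but only 7 of 14 in batch 1, with the other 7 above it. *DUSP23*, an atypical member, gave -0.40 ± 0.13 and -0.57 ± 0.12 (SE), but its second probe set did not pass in batch 1 (-0.27 ± 0.16, SE; limma adjusted p = 0.137) and passed in batch 3 (-0.79 ± 0.15, SE). *DUSP6*, the ERK phosphatase that ERK itself induces, gave 0.09 ± 0.20 and -0.01 ± 0.18 (SE; limma adjusted p = 0.687 and 0.958), with means of 5.07 ± 0.59 in batch 1, 4.98 ± 0.57 in batch 3 and 4.93 ± 0.69 in batch 2 (SD).

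Protein kinase A gave the smallest p for batch of the 40 genes. *PRKAR2A* encodes the regulatory subunit RII alpha, which holds the catalytic subunit inactive until cyclic AMP binds. *PRKAR2A* spanned 6.65 to 8.30 in batch 1 (median 7.47), 5.90 to 7.85 in batch 3 (median 7.13) and 7.63 to 9.72 in batch 2 (median 8.80). In batch 1, 10 of 14 pigs, and in batch 3, 16 of 18, lay below the lowest pig of batch 2. The differences were -1.23 ± 0.14 and -1.54 ± 0.13 (SE; 0.427 and 0.343 times the batch 2 level; limma adjusted p = 8.38e-13 and 1.35e-19). *PRKACA*, the catalytic subunit, differed by -0.89 ± 0.18 and -0.90 ± 0.17 (SE). Of the AMPK genes *PRKAG3* was lower in both batches (-1.08 ± 0.18 and -0.92 ± 0.17, SE), and *PRKAG2* gave 0.10 ± 0.35 and -0.04 ± 0.32 (SE). *PRKAB2* was lower in batch 3 alone (-0.28 ± 0.13, SE, limma adjusted p = 0.0334), with 10 of 18 pigs below the batch 2 median and 8 above it. By the F test over the 3 batches *PRKAB2* did not pass (limma adjusted p = 0.051).

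The calcium-responsive kinases and their inhibitor went in opposite directions. *CAMK2G* and *CAMK2B* encode CaMKII subunits, and *CAMK2N1* encodes a small protein that inhibits CaMKII. *CAMK2G* spanned 7.16 to 9.77 in batch 1 (median 8.48), 7.16 to 9.09 in batch 3 (median 8.07) and 7.94 to 10.14 in batch 2 (median 9.31). Its differences were -0.81 ± 0.13 and -1.16 ± 0.12 (SE; limma adjusted p = 8.84e-08 and 1.2e-14), and *CAMK2B* gave -0.94 ± 0.16 and -0.98 ± 0.15 (SE). *CAMK2N1* was higher by 0.61 ± 0.17 and 0.60 ± 0.16 (SE; limma adjusted p = 8.61e-04 and 3.17e-04). It ran from 4.96 to 7.20 in batch 1, from 4.00 to 7.14 in batch 3 and from 4.44 to 6.90 in batch 2, and the lowest pig of all was in batch 3.

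PP1 and PP2A subunits did not move as one. All 3 catalytic genes of PP1 were lower in both batches, beside 41.5% of all probe sets in batch 1 and 45.3% in batch 3. *PPP1CA* spanned 3.28 to 5.17 in batch 1 (median 4.59), 3.39 to 5.43 in batch 3 (median 4.04) and 4.27 to 7.21 in batch 2 (median 5.70), and all 32 pigs of batches 1 and 3 lay below the batch 2 median. The differences for *PPP1CA* were -1.26 ± 0.19 and -1.52 ± 0.18 (SE; 0.417 and 0.349 times the batch 2 level; limma adjusted p = 1.68e-08 and 1.18e-12). *PPP1CB* gave -0.68 and -0.98 and *PPP1CC* -0.54 and -0.61. *PPP1R14B*, an inhibitor of PP1, differed by -0.92 ± 0.15 and -1.12 ± 0.14 (SE), *PPP1R11*, another inhibitor, by -0.43 and -0.53, and *PPP1R15A* by -1.10 ± 0.33 and -1.85 ± 0.31 (SE). *PPP1R21*, whose product works at endosomes, was higher. It spanned 4.08 to 6.63 in batch 1 (median 4.98), 4.85 to 6.56 in batch 3 (median 5.72) and 3.39 to 5.54 in batch 2 (median 4.37). In batch 3, 11 of 18 pigs lay above the highest pig of batch 2, and 2 of 14 did in batch 1. *PPP1R21* differed by 0.55 ± 0.14 and 1.14 ± 0.13 (SE; limma adjusted p = 3.67e-04 and 4.3e-13). *PPP1R12A*, which targets PP1 to myosin, was higher in batch 3 (0.63 ± 0.24, SE; limma adjusted p = 0.0118) and gave 0.06 ± 0.26 in batch 1.

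In PP2A the scaffold and the catalytic gene moved in opposite directions in the fit of sex, batch and weight. *PPP2R1A*, the scaffold on which the other subunits sit, spanned 4.57 to 7.99 in batch 1 (median 5.70), 4.32 to 6.23 in batch 3 (median 5.86) and 5.46 to 9.32 in batch 2 (median 7.62). All 18 pigs of batch 3 and 13 of 14 of batch 1 were under the batch 2 median. Its differences of -1.72 ± 0.25 and -1.79 ± 0.23 (SE; 0.303 and 0.289 times the batch 2 level; limma adjusted p = 3.25e-09 and 2.95e-11) became -0.998 and -1.0 with the RNA integrity measure described above, the actin difference, as a further term (limma adjusted p = 4.6e-05 and 1.3e-05). *PPP2CA*, a catalytic subunit, was higher by 0.40 ± 0.17 and 0.55 ± 0.16 (SE; limma adjusted p = 0.0352 and 0.00141), and its batches overlapped, with 9 of 14 and 13 of 18 pigs above the batch 2 median. The slope of *PPP2CA* on the actin difference was -0.36 ± 0.18 (SE, limma adjusted p = 0.0874). Its batch differences with that term are not given here. Without that term *PPP2R5D* differed by -0.86 and -0.74. The other phosphatase genes were lower in both batches: *PPP6R2*, a subunit of PP6, gave -0.66 and -0.90, and the metal-dependent phosphatases *PPM1B* and *PPM1G* gave -0.78 and -0.40 and -0.85 and -0.66. *PRKCSH*, matched by its symbol although it encodes a glucosidase subunit of the endoplasmic reticulum and no kinase, gave -0.71 and -0.89. Of the PI3-kinase genes *PIK3CG* was higher, by 0.92 ± 0.12 in batch 1 and 0.67 ± 0.11 in batch 3 (SE), and all 14 pigs of batch 1 lay above the batch 2 median. The macrophage markers *CD163* and *AIF1* were higher in batch 1 and did not pass in batch 3, with a mean of 3.65 to 6.69 in batch 1, 3.81 to 5.74 in batch 3 and 3.23 to 6.94 in batch 2; their part in the result for *PIK3CG* was not tested.

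**Figure D3:**
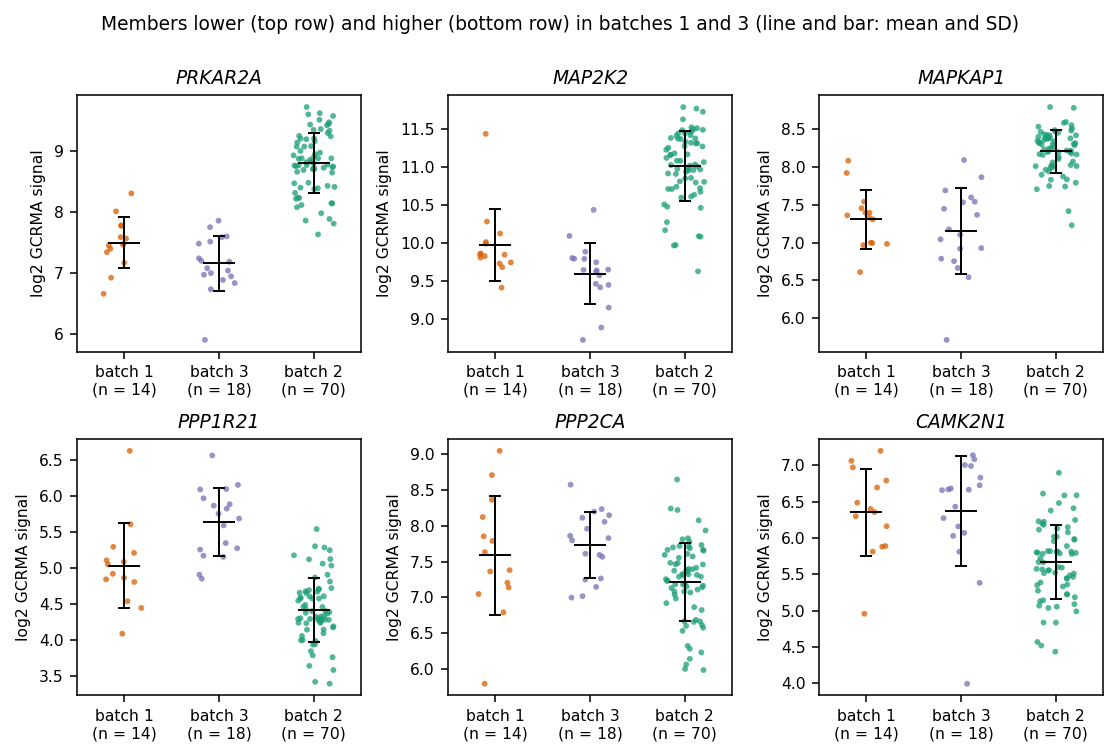
Log2 GCRMA signal in each pig by slaughter batch (batch 1, n = 14; batch 3, n = 18; batch 2, n = 70) for 3 genes that were lower in batches 1 and 3 (top) and 3 that were higher (bottom), with lines and bars for mean and SD. *PRKAR2A* separates best, with 16 of 18 pigs of batch 3 below every pig of batch 2, and a single pig of batch 1 stands at 11.43 for *MAP2K2*.

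Many of these genes varied with RNA integrity, for which the actin difference above stands as a measure. When each array's actin difference was added to the model, 27 of the 40 genes passed for it, 22 with a higher level where the 5′ end was better kept and 5 with a lower one, beside 52.8%, 27.6% and 25.2% of all probe sets. The steepest slope was that of *PPP2R1A*, at 1.67 per unit of the difference. With this term 29 genes passed in batch 1 (background 62.3%) and 34 in batch 3 (background 70.3%). The median differences over the 40 genes were then -0.41 and -0.54, beside -0.13 and -0.18 over all probe sets. Of the 33 genes called in batch 1 without the term 29 remained called and 30 had a smaller estimate, and of the 37 in batch 3 these were 34 and 33. Over cell types, *DES* was lower in batches 1 and 3 (-1.03 and -1.28), and so was the only fast fibre marker measured, *ATP2A1* (-1.37 and -1.42). Among 6 slow fibre markers 2 in batch 1 and 3 in batch 3 were higher and none was lower. Of all probe sets 32.7% were higher and 41.5% lower in batch 1, and 36.2% and 45.3% in batch 3. The mean of the slow fibre markers ran from 10.7 to 13.1 in batch 1, 11.0 to 13.4 in batch 3 and 9.31 to 13.0 in batch 2. Of 4 fibroblast markers 3 and 2 were higher and 1 was lower in each, of 5 endothelial markers 2 were higher in batch 1 and 2 lower in batch 3, and of 5 adipocyte markers 2 were lower in batch 1, and 2 lower and 1 higher in batch 3. The mast cell marker *KIT* did not pass in either. What part RNA integrity, fibre type or other cells had in the batch differences was not tested. The labels do not give when RNA was prepared or arrays were run, so laboratory handling cannot be told apart from slaughter batch. For batch 1, age and batch cannot be told apart fully because only it held pigs under 178 days. With age as a further term 29 genes passed in batch 1 (background 62.2%) and 37 in batch 3 (background 81.6%), with median differences of -0.76 and -0.88.

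The 12 genes with the smallest p for batch kept their direction and their call in both batches under each of the 13 alternative settings run. These 12 were picked by their p in the same arrays that the settings reuse. A kept call was therefore close to fixed in advance and is no independent check. Within females 29 genes passed in batch 1 and 35 in batch 3 (background 60.4% and 70.5%), and within males 31 and 33 (background 65.3% and 73.4%). Leaving out the 6 arrays doubtful for sex gave 33 and 37 (background 74.1% and 79.3%), and leaving out the 5 arrays nearer to another batch gave 34 and 37 (background 76.7% and 82.2%). Those 5 were picked for lying against the batch differences of the same fit, so leaving them out could hardly weaken these differences. Centring matters for the split of all probe sets: after quantile normalization it became even, at 37.1% higher and 37.5% lower in batch 1 and 40.6% and 41.1% in batch 3, with medians over all probe sets of 0.01 and -0.01. The 40 genes still split 5 higher to 26 lower and 6 to 28.

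For 2 genes the choice of probe set turned the direction. *PPP3CB* encodes the catalytic beta subunit of calcineurin, the phosphatase that sends NFAT to the nucleus. The probe set used spanned 8.33 to 9.90 in batch 1 (median 9.38), 6.70 to 9.95 in batch 3 (median 8.80) and 8.96 to 10.50 in batch 2 (median 9.85), and differed by -0.53 ± 0.14 and -0.91 ± 0.13 (SE; limma adjusted p = 3.1e-04 and 3.1e-10). The second probe set spanned 6.23 to 8.56, 6.17 to 8.74 and 5.77 to 7.96 in the same batches, and differed by 1.01 ± 0.17 and 0.76 ± 0.15 (SE; limma adjusted p = 8.65e-08 and 6.04e-06). The 2 probe sets of *PPP3CB* thus passed in opposite directions, and their residuals correlated at r = -0.168 over 102 pigs. *PTPN4* encodes a tyrosine phosphatase without a receptor domain. Its first probe set gave -0.60 ± 0.14 and -0.61 ± 0.13 (SE; limma adjusted p = 7.55e-05 and 1.13e-05), and its second gave 0.70 ± 0.22 and 0.95 ± 0.20 (SE; limma adjusted p = 0.00325 and 1.52e-05), with r = 0.376 between them. The counts above use the first probe set, and no batch direction is given for either gene. The other 5 genes with a second probe set (*DUSP23*, *MAP2K2*, *MAP3K3*, *PPP1CA* and *PPP6R2*) had the same direction in both, but for *DUSP23* and *MAP3K3* the call in batch 1 differed, as given above. For *PPP1CA* the second probe set passed for sex (-0.45, limma adjusted p = 0.0055) where the first did not (-0.29, limma adjusted p = 0.0876).

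**Figure D4:**
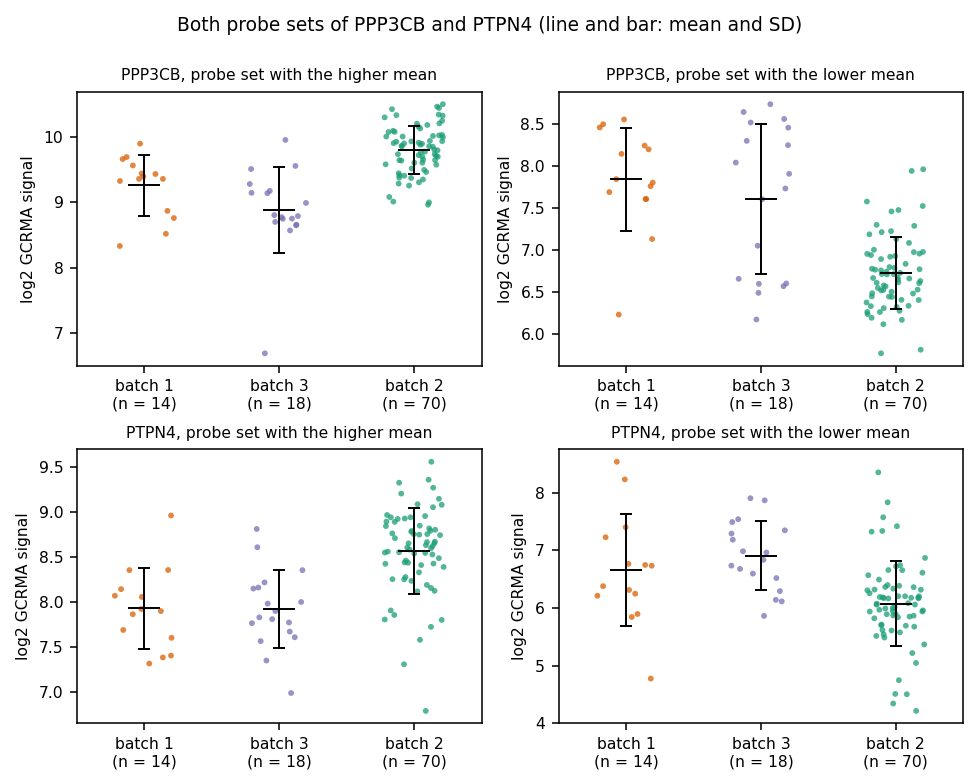
Log2 GCRMA signal in each pig by slaughter batch for both probe sets of *PPP3CB* and *PTPN4*, with lines and bars for mean and SD. Batches 1 and 3 lie below batch 2 for the probe sets with the higher mean (left) and above it for those with the lower mean (right).

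Carcass weight was not a detectable term for these genes. None of the 40 passed (4 at an unadjusted p under 0.05: *MAPK3*, *MAPKAP1*, *PRKAG2* and *PPP1R11*), and none of all probe sets did (0%; 589 at an unadjusted p under 0.05). Slopes ran from -0.26 to 0.15 per 10 kg, with SE of 0.04 to 0.12, and the lowest limma adjusted p was 0.398. The sex by carcass weight term passed for none of the 40 either (4 at an unadjusted p under 0.05), nor for any probe set (0%).

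Pigs of the same sex, batch and weight still differed, and the 40 genes differed in how much. The residual SD ran from 0.354 in *MAPKAP1* to 1.19 in *PRKAG2*, with a median of 0.478. After *PRKAG2* came *PPP1R15A* at 1.13, *DUSP1* at 0.867, *PPP1R12A* at 0.863, *PPP2R1A* at 0.843, *DUSP6* at 0.664, *MAP2K6* at 0.662 and *PPP1CA* at 0.650. *DUSP1* spanned 8.15 to 13.03 over all pigs and *PPP1R15A* spanned 3.31 to 9.53; both are known as genes that stress switches on quickly. *PPP1R12A* spanned 5.94 to 10.03, and its lowest and highest pigs were both in batch 2.

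Pairs were formed by symbol, from genes named for parts or inhibitors of the same enzyme and from kinases with the kinase they activate. Not all of them are subunits of one enzyme. CaMKII was paired with its inhibitor *CAMK2N1*, and PP1 with the inhibitors *PPP1R11* and *PPP1R14B* among others. Of the 24 pairs 5 were correlated over the 102 pigs after sex, batch and weight were taken out. The strongest was *MAP2K2* with *MAPK3*, that is MEK2 with ERK1, at r = 0.628 and rho = 0.635 (permutation p = 1e-05 for each, the smallest these permutations can give; adjusted p = 1.2e-04); r was 0.606 without the 2 pigs farthest from the median, and 0.535, 0.505 and 0.685 within batches 1, 3 and 2. The pair of *PRKACA* and *PRKAR2A* followed at r = 0.550 and rho = 0.595 (permutation p = 1e-05 for each, the smallest they can give; adjusted p = 1.2e-04), 0.510 without the 2 farthest pigs, and 0.683, -0.026 and 0.611 within batches 1, 3 and 2. It was therefore not seen within batch 3. *PPP1CA* with *PPP1R14B* gave r = 0.301 and rho = 0.278 (permutation adjusted p = 0.0168 for r), 0.321 without the 2 farthest pigs, and -0.011, 0.284 and 0.347 within the batches. *PPP1CC* was inversely related to *PPP1R11* (r = -0.267, rho = -0.275, permutation adjusted p = 0.0398 for r) and to *PPP1R15A* (r = -0.260, rho = -0.307, permutation adjusted p = 0.0408 for r), but both were positive within batch 3 (0.333 and 0.278); within batch 1 they gave -0.139 and -0.225 and within batch 2 -0.494 and -0.404, and without the 2 farthest pigs -0.310 and -0.330. Of the AMPK pairs *PRKAB2* with *PRKAG2* gave r = -0.003 and *PRKAB2* with *PRKAG3* gave r = 0.057, and *MAP2K6* with *MAPK12* gave r = -0.052; none of these passed. Among the 40 genes *MAP2K2* had 16 partners with an absolute r over 0.5, and *PRKACA* had 14. *MAP2K2* correlated more strongly with *CAMK2G* (r = 0.80) and *CAMK2B* (r = 0.76) than with *MAPK3*, so its r with *MAPK3* does not set that pair apart. With 2 principal components of the residuals of all probe sets added to the model no pair passed, and *MAP2K2* with *MAPK3* gave r = -0.063. The first component held 18.0% of the residual variance and the second 11.5%.

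Over all 780 pairs of the 40 genes the median r was 0.074, and 13.7% had an absolute r over 0.5, beside 7.51% of pairs over all 2201 genes; this is a description over shared arrays, with no test. Of those 107 pairs 104 were positive. The highest were *CAMK2G* with *MAP2K2* at 0.80 and *CAMK2B* with *PRKACA* at 0.79. The 3 negative ones were *CAMK2G* with *PPP1R21* (-0.57), *PRKAG2* with *PTPN4* (-0.56) and *PIK3IP1* with *PRKAG2* (-0.54). The most connected gene was *PPP2R1A*, with 17 partners over 0.5, and it followed the first component of the residuals of all probe sets (r = 0.91), as did *MAP2K2* (r = 0.81). *PRKAG2* followed the second (r = 0.84), and *PPP1R15A* (r = 0.61) and *PRKAG3* (r = -0.47) also correlated with it. The gamma subunits *PRKAG2* and *PRKAG3*, which differed between the sexes in opposite directions, had r = -0.41 within sex, batch and weight, and *PRKAG2* and *PPP1R15A*, both lower in females, had r = 0.52. What part the second component had in these 2 values was not tested.

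**Figure D5:**
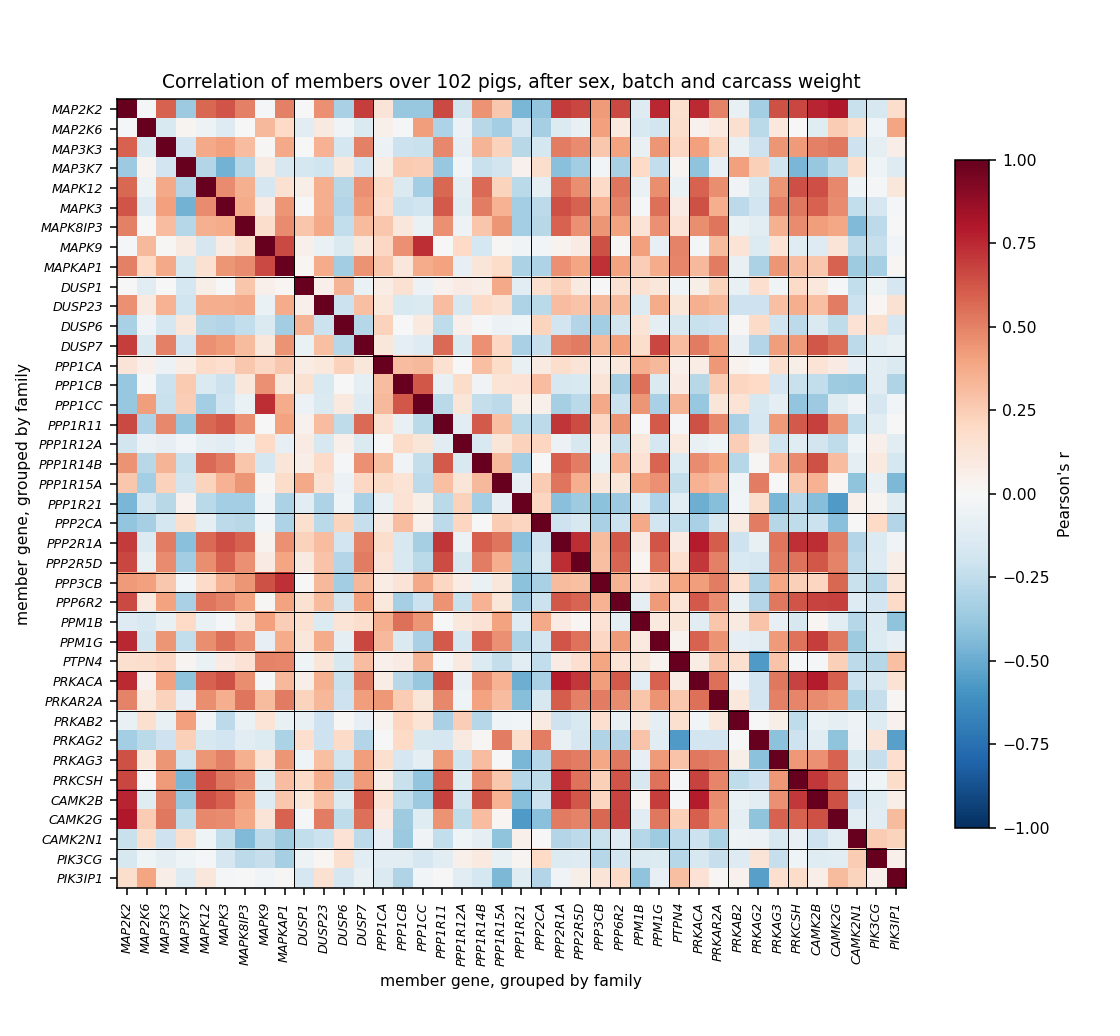
Pearson's r between the 40 genes over 102 pigs after sex, batch and carcass weight, grouped by family, with red for positive and blue for negative r. A broad red block joins *MAP2K2*, *PPP2R1A*, *PRKACA* and the CAMK2 kinases, and *PRKAG2* is blue against *PTPN4* and *PIK3IP1*.

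Other genes of the same pathways, listed by pathway, were read from the same fits. Of 61 such genes measured, 17 passed for sex (27.9%, against 26.1% of all probe sets), 2 higher and 15 lower in females, with a median of -0.11. In RAS and MAP kinase signalling 3 of 12 passed, all lower in females: *GRB2*, the adaptor between receptors and RAS (-0.62), the transcription factor *MYC* (-0.91) and the growth arrest gene *GADD45A* (-0.90). In cyclic AMP signalling 4 of 12 passed, all lower: the coactivator *PPARGC1A* (-1.43, limma adjusted p = 1.81e-05), the nuclear receptor *NR4A3* (-2.20, limma adjusted p = 4.46e-04), *CREM* (-0.61) and *AKAP1* (-0.43). In insulin, AKT and mTOR signalling 3 of 14 passed, all lower: *FOXO1* (-0.56), *TBC1D1* (-0.44) and *AKT1* (-0.47). In AMPK signalling 3 of 4 were lower: *CPT1B* (-0.44), which carries fatty acids into mitochondria, *STK11* (-0.42), the kinase LKB1 that activates AMPK, and *UCP3* (-0.35). In calcium signalling *CALM2* (0.27) was higher and *HDAC5* (-0.40) lower of 12, and among tyrosine kinases and adaptors *JAK2* (0.29) was higher and *STAT3* (-0.38) lower of 7.

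For batch the same lists gave 41 of 61 called in batch 1 (10 higher, 31 lower; 67.2%, against 74.2% of all probe sets) and 50 of 61 in batch 3 (13 higher, 37 lower; 82.0%, against 81.5%), with medians of -0.47 and -0.87. The RAS and MAP kinase list gave 6 of 12 in batch 1 and 9 of 12 in batch 3, with *RAC1* (-0.91 and -0.87) and *ARAF* (-1.05 and -1.38) lower and *MRAS* (0.81 and 1.07) higher. The insulin list gave 10 and 12 of 14, with *AKT1* (-1.63 and -1.93) lower and *PDPK1* (0.69 and 0.81) and *RPS6* (0.88 and 1.32) higher. The AMPK list gave 4 of 4 in both, all lower and led by *STK11* (-1.86 and -2.22). The calcium list gave 10 and 11 of 12, led by the calcium channel gene *ORAI1* (-1.68 and -2.26), and the tyrosine kinase list 6 and 6 of 7, led by the adaptor *NCK2* (-1.52 and -1.99). The cyclic AMP list was split, with 5 of 12 called in batch 1 (3 higher, 2 lower) and 8 in batch 3 (4 higher, 4 lower). Its medians were 0.18 and -0.28, and its smallest p was that of *PYGM* (-1.63 and -1.82).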

How the data were processed

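Total RNA from *Longissimus dorsi* was isolated with the RiboPure kit, labelled with biotin and hybridised to Affymetrix arrays. The deposited log2 values are 1 GCRMA-normalized signal per probe set and array, made by the authors, who also checked array quality and removed probe sets with little variation; no GCRMA version is stated in the sources used here. Of 5493 probe sets, 44 controls were left out and 5449 tested; 2639 had 1 gene symbol in the platform annotation, 49 several and 2761 none. Values were used as deposited. The rule for choosing genes left out 2 symbols, which are not reported here. limma 3.58.1 in R 4.3.3 fitted sex, slaughter batch and carcass weight per 10 kg, all two-sided with Benjamini-Hochberg adjustment over all probe sets; the study's pedigree term was not used. Correlations used residuals and 100000 permutations (scipy 1.17.1), adjusted over 24 pairs. The scripts were tested on simulated data. Described in full were genes called for an effect, at most 12 by smallest p, the 8 with the largest residual SD, passing pairs, and genes whose probe sets disagreed; genes singled out as higher in batches 1 and 3 were chosen after their values were seen. Alternatives were quantile normalization, other covariates, array weights, an actin term, principal components, single batches or sexes and arrays left out. The genes, lists and tests were chosen with earlier results of these data known. Replicates are single pigs, and array number limits the precision.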

Additional observations from a re-analysis of the deposited data

How the results depend on the processing

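Counts of genes passing for slaughter batch stayed within 1.5 times of the reported counts under each setting that gave them. For sex, 6 of 40 genes passed in the fit reported; 13 passed with 2 principal components of the residuals added (39.1% of all probe sets), 11 in batch 2 alone (32.4%), and 0 within batch 1 (0.239%) and 0 within batch 3 (0.294%). Of 89 estimates of the 6 sex differences under other settings, 72 kept direction and call, 16 kept only the direction and 1 turned, that of *PIK3IP1* within batch 1 (-0.18). For carcass weight 0 passed in the fit reported, 4 with 2 principal components (4.73% of all probe sets), 2 with array weights (2.31%) and 31 with no other term in the model (62.6%), where weight also carries the batch difference. Of the 24 pairs formed by symbol 5 passed as reported, 3 with the actin difference as a term, 9 after quantile normalization and 0 with 2 principal components. With these components *PRKACA* with *PRKAR2A* gave r = -0.014, *MAP2K2* with *MAPK3* -0.063 and *PPP1CC* with *PPP1R15A* 0.084, all opposite in sign to the values reported. Components taken from the residuals leave the estimates as they are and narrow only their errors; the cause of the other changes was not tested. The alternatives within batch 1, batch 3 and each sex, and those without doubtful batch arrays, were chosen after seeing the data. No paired analysis was possible because each pig belongs to 1 sex and 1 batch and no number is shared between groups.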
